A study of Mus musculus with 6 samples.

Results

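The type I interferon-stimulated genes described here are a list of 34 symbols, and each was found as 1 row of the deposited table of 53465 genes. None was at 0 counts in any library and 0 were too low to test: 34 of the 34 passed the filter on low counts, which kept 15533 genes. RNA was sequenced after poly-A selection in long-term haematopoietic stem cells (LT-HSCs), sorted from bone marrow by the gate Lineage-, Sca-1+, c-Kit+, Flk2-, CD34-. The groups were irradiated mice given carnosine, which is beta-alanine joined to histidine (3 libraries), and irradiated mice given saline (3 libraries). Every mouse in both groups was wild type and had received 5.0 Gy to the whole body, so no value here shows what irradiation did. The labels give neither strain, age and sex nor the dose and timing of carnosine, and they do not say whether replicates came from separate mice. Each p-value therefore rests on the scatter of these 6 libraries, part or all of which could be technical. Libraries held 12730837 to 13651553 counts with carnosine and 12602067 to 16866534 with saline. Kit RNA was abundant, at 378 ± 4.11 CPM (counts scaled to library size by TMM) with carnosine and 329.6 ± 10.2 CPM with saline. So was RNA of 2 genes whose proteins the gate excludes: Flt3 had 179.9 ± 2.51 and 210.3 ± 8.64 CPM, and Cd34 301 ± 4.7 and 328 ± 18.9 CPM (SD, n = 3 each). The name of the cells is therefore that of the gate.

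Type I interferons bind a receptor made of the chains Ifnar1 and Ifnar2, whose kinases Jak1 and Tyk2 phosphorylate Stat2. Stat2 joins Irf9 in a complex that binds the interferon-stimulated response element of many genes, a large part of them antiviral. In mouse bone marrow, interferon alpha is known to push dormant stem cells into division, and stem cells keep some of these genes at a basal level without infection.

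The interferon-stimulated genes did not move as a block. Of the 34 members, 8 rose with carnosine (23.5%), 7 fell (20.6%) and 19 did not pass the test, which was edgeR's quasi-likelihood test at an adjusted p under 0.05. Over all tested genes 19.6% rose and 19.8% fell, so both shares of the members were near the background. In bulk RNA, fewer cells of a type and less RNA per cell cannot be told apart. In either direction 44.1% of the members passed, against 39.4% of all genes. By limma-trend on log2(FPKM + 1), 10 members rose and 5 fell, and that setting also tilted all genes, with 3387 rises and 2156 falls in place of 3038 and 3077. The median log2 fold change of the members was 0.03, beside -5.0e-05 over all tested genes. All 3 carnosine libraries lay above all 3 saline libraries for 11 members (32.4%, against 26.2% of all genes) and below them for 7 (20.6%, against 26.1%). For 16 of the 34 members the groups overlapped. For the rest they did not overlap, an outcome shared by 52.3% of all genes. Changes were small: log2 fold changes ran from -0.60 to 1.14. Mx1 alone rose by at least 2-fold, and 0 members fell by that much, where 3.06% of all genes rose and 3.53% fell by at least 2-fold. The call held for 8 members in all 17 alternative settings, which are those other than the 2-fold limit: Mx1, Dtx3l, Eif2ak2, Samd9l, Ifitm1, Ifitm3, Irf9 and Trim25. The count of members that rose was 5 without carnosine replicate 2, without carnosine replicate 3 and without saline replicate 2.

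**Figure D1:**
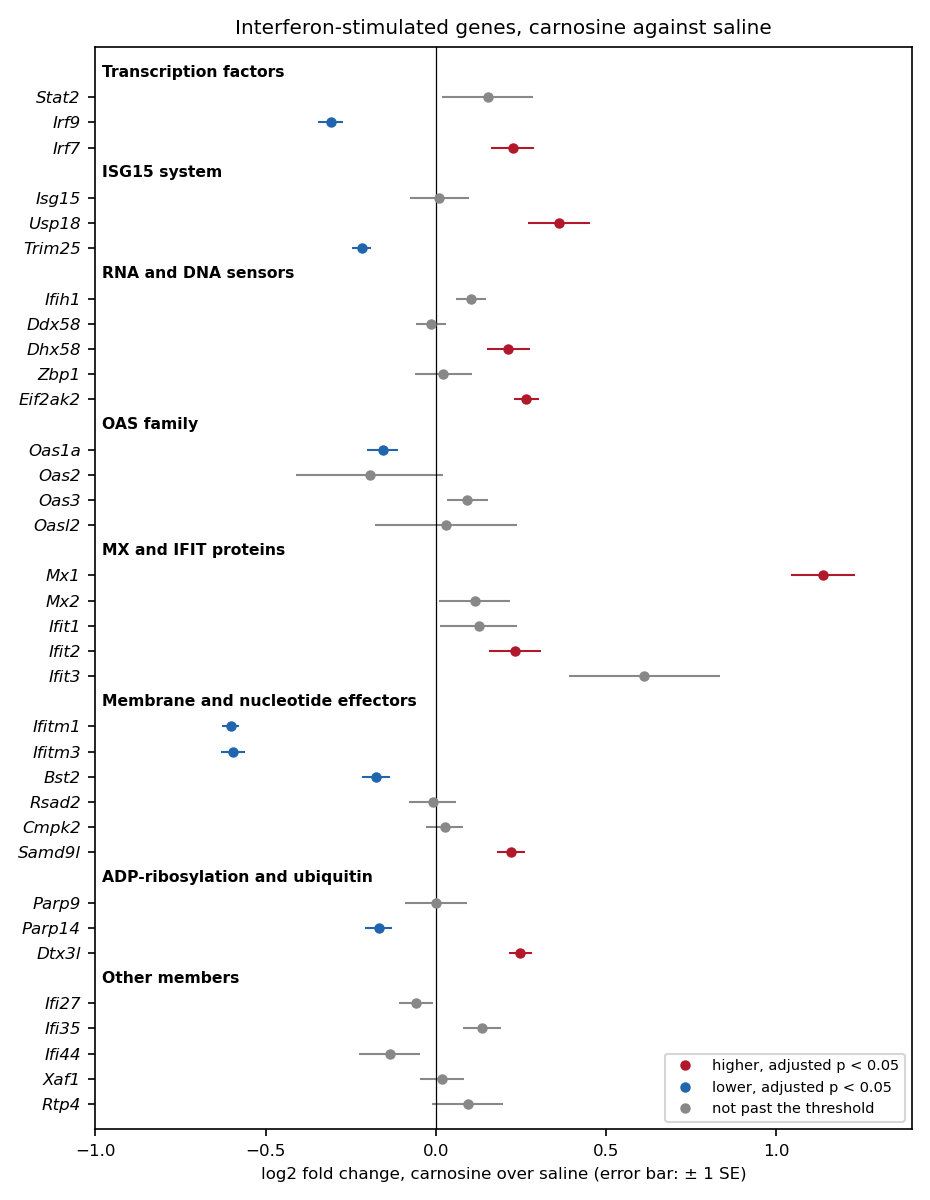
Log2 fold change of carnosine over saline (x axis) for the 34 members, grouped by role, with error bars of 1 SE from edgeR and 3 libraries per group. Colours mark the 8 members that rose, the 7 that fell and the 19 that did not pass the test. Mx1 stands apart at 1.14, and Ifitm1 and Ifitm3 share the lowest place at -0.60.

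By deposited FPKM, the 3 most abundant members encode membrane proteins. The gene length implied by FPKM exceeds the whole locus for Irf7 and Irf9, so ranks by FPKM are uncertain. In deposited FPKM, Ifitm3 averaged 131 ± 3.26 with carnosine and 191 ± 4.34 with saline, Ifitm1 93.1 ± 0.47 and 136 ± 1.44, and Bst2 57.7 ± 1.22 and 62.7 ± 1.28 (SD, n = 3 each). Oas1a and Trim25 followed at nearly equal levels, 26.7 ± 0.562 and 26.6 ± 0.506 FPKM with carnosine and 28.6 ± 0.714 and 29.7 ± 0.446 FPKM with saline. The lowest were Mx2 (1.96 ± 0.0872 FPKM with carnosine and 1.75 ± 0.181 with saline) and Ifit3 (1.75 ± 0.46 and 1.1 ± 0.0843 FPKM). The summed level of all members was 1913, 1863 and 1923 CPM in the carnosine libraries and 1977, 1965 and 2004 CPM in the saline libraries. The carnosine sums were thus all lower. Ifitm1 and Ifitm3 made up 207, 208 and 204.5 CPM of the carnosine sums, against 317.5, 313 and 309.5 CPM of the saline sums. Over the other 32 members the sums overlapped, at 1705, 1654 and 1718 CPM with carnosine and 1660, 1652 and 1694 CPM with saline.

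**Figure D2:**
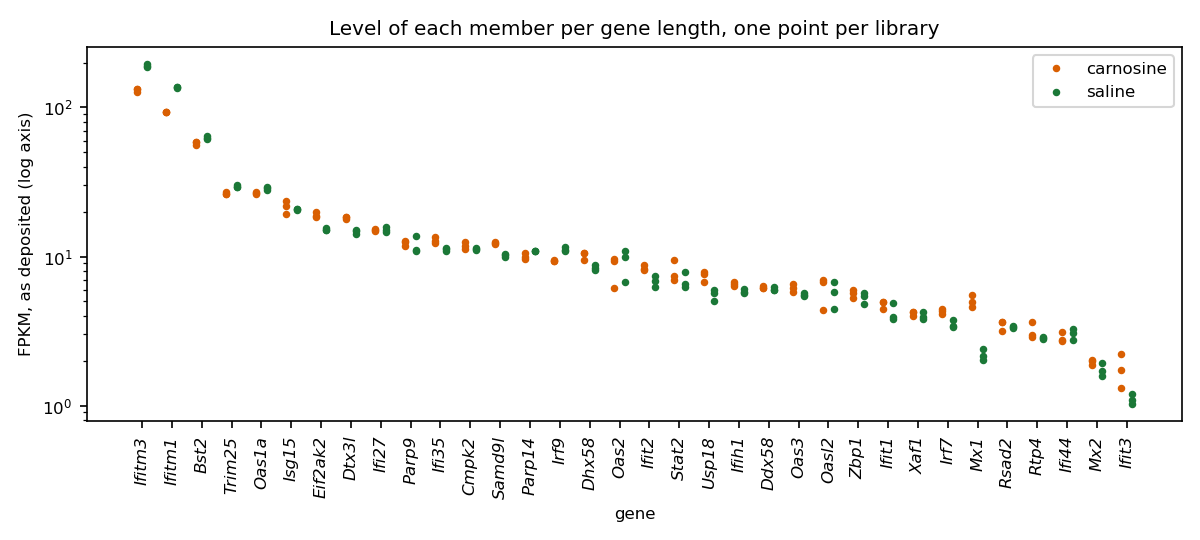
Deposited FPKM (log axis) of each member in each of the 6 libraries, ordered by mean level. At each gene the carnosine libraries come before the saline libraries. Ifitm3, Ifitm1 and Bst2 lead in both groups, and Mx2 and Ifit3 are lowest.

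Interferons themselves were nearly absent from the RNA of the sorted cells. Of 21 interferon genes looked up, 16 had 0 counts in all 6 libraries, among them Ifnb1 and every Ifna gene on the list. A count of 0 allows a level of up to 0.0737 CPM over the carnosine group and 0.0679 CPM over the saline group, by counting error alone. Interferon gamma (Ifng), made chiefly by T and natural killer cells, was the 1 ligand with enough counts to test. It had 11, 4 and 7 counts with carnosine, against 23, 19 and 17 with saline, and was lower (-1.29 ± 0.329 on the log2 scale, SE; adjusted p = 0.0185, edgeR). That call was lost with DESeq2 (adjusted p = 0.0874), without carnosine replicate 3 (0.0535) and without saline replicate 1 (0.0583). Of the 8 tested T and natural killer cell markers 5 were higher and 3 lower, where 19.6% and 19.8% of all tested genes were. The part of these markers in the value of Ifng was not tested. Values of Nkg7 and of the 3 lower markers are given at the end.

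Both chains of the type I receptor were present in both groups. Ifnar1 averaged 72.9 ± 2.12 CPM with carnosine and 69.7 ± 5.94 CPM with saline (log2 fold change 0.06, 95% interval -0.09 to 0.22), and Ifnar2 77.3 ± 2.9 and 76.7 ± 1.57 CPM (0.01, -0.09 to 0.11). Of the 8 tested receptor chains and kinases 3 rose (37.5%, against 19.6% of all genes) and 2 fell (25%, against 19.8%). Jak1 fell to 285 ± 5.21 CPM with carnosine, against 312 ± 4.88 CPM with saline (log2 fold change -0.13 ± 0.0253, SE), a call lost by limma-trend on log2(FPKM + 1) (adjusted p = 0.0941). Jak2, which serves other cytokine receptors, fell as well (-0.20 ± 0.0301). The rises were in receptor chains for other interferons: Ifngr1 reached 264 ± 4.18 CPM, against 202 ± 5.28 CPM (0.38 ± 0.0288), and Ifngr2 (0.29) and Il10rb (0.17) rose by less. Leaving out any of 5 of the 6 libraries ended the call of Ifngr2 (adjusted p 0.0544 to 0.105; it held without saline replicate 2) and that of Il10rb (0.087 to 0.122; it held without carnosine replicate 1). With DESeq2 both calls were lost as well (adjusted p = 0.0774 for Ifngr2 and 0.213 for Il10rb), likewise with no filter (0.0562 and 0.111) and with the replicate block (0.082 and 0.0956).

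The transcription factors among the members went different ways. Irf9, the DNA-binding part of the complex with Stat2 (ENSMUSG00000002325, chromosome 14, 55603571 to 55610030, GRCm38), had 85.3, 85.6 and 85.3 CPM in the carnosine libraries, against 103, 105 and 109.8 CPM in the saline libraries. The carnosine libraries were nearly identical and lay below all saline libraries. Irf9 fell by 0.31 ± 0.037 on the log2 scale (SE; adjusted p = 0.000646, edgeR). Its partner Stat2 had 56, 75.5 and 59.6 CPM with carnosine and 65.8, 51.9 and 54.2 CPM with saline. Those values overlapped, with a 95% interval of the log2 fold change from -0.16 to 0.46.

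Irf7, the factor that amplifies interferon production once induced, had 41.4, 44.5 and 43.1 CPM with carnosine, against 35.9, 35 and 39.5 CPM with saline. The groups did not overlap, and Irf7 rose by a log2 fold change of 0.23 ± 0.0633 (SE; adjusted p = 0.0262, edgeR). The call was lost without carnosine replicate 2 or 3 and without saline replicate 1 or 2 (adjusted p 0.0644 to 0.0805), with DESeq2 (0.0742) and with the replicate block (0.0518). The gene Phrf1 overlaps Irf7 and held 5670 counts over all libraries, and Rnf31 overlaps Irf9 and held 4167, so reads in the shared stretches could belong to either gene. Of 9 factors of the interferon response outside the members, 4 rose (44.4%, against 19.6% of all genes) and 2 fell (22.2%, against 19.8%). Irf1, a factor induced by interferon gamma and inflammatory signals, fell to 68.4 ± 2.69 CPM with carnosine, against 180.0 ± 7.21 CPM with saline (log2 fold change -1.4 ± 0.0447). The repressor Etv6 fell too (-0.32 ± 0.0268). The rises were Irf5 (41.5 ± 1.08 CPM against 18 ± 3.01 CPM; 1.21 ± 0.111), Irf8, a factor of monocyte and dendritic cell fate (0.45 ± 0.0363), Irf4, which also stands on the list of plasma cell markers (0.69 ± 0.127), and Irf3 (0.26 ± 0.0772). The call of Irf3 was lost without carnosine replicate 1 or 3 and without saline replicate 1 or 2 (adjusted p 0.0823 to 0.0927).

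The ISG15 system, a ubiquitin-like modifier with its enzymes, held members of all 3 outcomes. Isg15 itself had 17.5, 16.3 and 14.4 CPM with carnosine and 15.8, 16 and 16 CPM with saline. These values overlapped, and the 95% interval of the log2 fold change ran from -0.19 to 0.21. Usp18, which removes ISG15 from proteins and dampens signalling at the interferon receptor, had 26.8, 23 and 25.7 CPM with carnosine, against 17.7, 21 and 20.1 CPM with saline. It rose by a log2 fold change of 0.36 ± 0.0913 (SE; adjusted p = 0.0177, edgeR), a call lost without carnosine replicate 1 or 3 and without saline replicate 1 (adjusted p 0.0507 to 0.0563). Trim25, a ligase for ubiquitin and ISG15 that acts with the sensor RIG-I, had 149.8, 151 and 156 CPM with carnosine, against 175, 179 and 176 CPM with saline. All carnosine libraries were lower, and Trim25 fell by 0.22 ± 0.0279 on the log2 scale (adjusted p = 0.000902, edgeR). Uba7, the activating enzyme for ISG15 and no member, fell too (-0.21 ± 0.0312). Herc6, also of this system and no member, rose, a call lost in 7 of the 17 alternatives. Of 12 negative regulators of the pathway outside the members 2 rose (16.7%, against 19.6% of all genes) and 2 fell (16.7%, against 19.8%). The falls were Socs3 (47.4 ± 2.3 CPM with carnosine against 111 ± 2.04 CPM with saline; -1.23 ± 0.0471) and Irf2bp2 (-0.47 ± 0.0362). The rises were the phosphatase Ptpn6 (0.13 ± 0.0284) and the nucleotide hydrolase Samhd1 (0.10 ± 0.0302). With DESeq2 neither rise passed (adjusted p = 0.0804 for Ptpn6 and 0.201 for Samhd1), so 0 of the 12 rose and 2 fell. Samhd1 also lost its call without carnosine replicate 1 or 3, without saline replicate 1 or 2 (adjusted p 0.0835 to 0.0978) and with no filter (0.0757).

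Among the sensors of nucleic acid, 2 members rose and 3 did not pass. Of all tested genes 19.6% rose. Eif2ak2, which encodes PKR, the kinase that halts translation on double-stranded RNA, had 107, 108 and 114 CPM with carnosine, against 90.9, 92.4 and 89.8 CPM with saline. All carnosine libraries were higher (0.27 ± 0.0376 on the log2 scale, SE; adjusted p = 0.00139, edgeR). Dhx58, which encodes LGP2, a regulator of the RNA sensors, had 40.7, 45.6 and 45.2 CPM with carnosine, against 39.5, 37.3 and 36.6 CPM with saline (0.21 ± 0.0636; adjusted p = 0.0331). Dhx58 lost its call without carnosine replicate 2 or 3 and without saline replicate 2 or 3 (adjusted p 0.0915 to 0.0981), with no filter (0.0728), with DESeq2 (0.0998) and with the replicate block (0.0812). Ifih1, which encodes MDA5, averaged 72.9 ± 2.07 CPM with carnosine and 67.8 ± 2.08 CPM with saline, without overlap but short of the threshold (adjusted p = 0.108). It passed by limma-trend on log2(FPKM + 1) and log2(FPKM + 0.1) (adjusted p = 0.0398 and 0.0383). Ddx58, which encodes RIG-I, averaged 66.7 ± 1.46 and 67.3 ± 2.13 CPM (95% interval of the log2 fold change -0.12 to 0.09). Zbp1, which binds nucleic acid in the Z form and can start necroptosis, averaged 26.8 ± 1.7 and 26.4 ± 2.33 CPM (95% interval -0.18 to 0.22).

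Of 18 genes of nucleic acid sensing outside the members 7 rose (38.9%, against 19.6% of all genes) and 3 fell (16.7%, against 19.8%). Without carnosine replicate 1 or without saline replicate 1, 4 rose and 3 fell. Tlr3, the endosomal receptor for double-stranded RNA, reached 26.2 ± 3.8 CPM with carnosine, against 6.15 ± 0.172 CPM with saline (log2 fold change 2.09 ± 0.12). The kinase Ikbke (0.49 ± 0.0735), the DNA receptor Tlr9 (0.72 ± 0.121) and Ticam1, the adaptor of Tlr3 (0.40 ± 0.0737), also rose. The other rises, Irak4, Aim2 and Tbk1, lost their calls in 11, 6 and 3 of the 17 alternatives. The falls were Traf6 (-0.41 ± 0.0377), Nlrc5 (-0.27 ± 0.0354) and Mavs, the adaptor of MDA5 and RIG-I (-0.23 ± 0.0529).

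The oligoadenylate synthetases make the messenger that activates RNase L on double-stranded RNA, and 1 of the 4 members of this family passed the test. With the 4 other synthetase genes on the lists, 3 of 8 passed, near the 39.4% of all tested genes. Of these 3 synthetase genes, 2 were higher and 1 lower. Oas1a had 49, 50.5 and 48.6 CPM with carnosine, against 53.6, 55.2 and 56.4 CPM with saline. It was lower in all carnosine libraries (-0.16 ± 0.0453 on the log2 scale, SE; adjusted p = 0.0301, edgeR). The call was lost without carnosine replicate 1 or 3 and without saline replicate 2 or 3 (adjusted p 0.0716 to 0.0859), with DESeq2 (0.168), with the replicate block (0.0712) and in both limma-trend settings (0.0534 and 0.0538). Its close relatives Oas1c and Oas1g, which are no members, went the other way. Oas1c averaged 8.66 ± 0.288 CPM with carnosine and 5.74 ± 1 CPM with saline (0.60 ± 0.14; adjusted p = 0.0131, edgeR), a call that held in the 17 alternatives. Oas1g averaged 23.8 ± 0.411 CPM with carnosine and 20.8 ± 0.42 CPM with saline (0.19 ± 0.0563; adjusted p = 0.0331), and it lost its call in 9 of the 17 alternatives, among them each of the 6 that leave out a library (adjusted p 0.0575 to 0.0959) and DESeq2 (0.245). Reads shared by such copies could be split between them. Oas3 averaged 50.8 ± 3.46 and 47.6 ± 1.01 CPM (adjusted p = 0.268).

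The other 2 members of this family varied widely within each group. Oas2 had 77.2, 49.8 and 74.8 CPM with carnosine and 56.9, 82.6 and 91.8 CPM with saline. Oasl2, a related synthetase, had 72.8, 46.1 and 71.7 CPM with carnosine and 74.1, 48.4 and 63.9 CPM with saline. The highest library of a group stood 1.53 to 1.61 times above the lowest for these genes, where counting error amounts to a coefficient of variation of 3.13% for Oas2 and 3.42% for Oasl2. Groups overlapped for both (adjusted p = 0.516 and 0.925).

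Mx1 had the largest log2 fold change of the members. It encodes a dynamin-like GTPase that blocks influenza virus in mice, although many laboratory strains carry a defective gene (ENSMUSG00000000386, chromosome 16, 97447035 to 97462907, GRCm38). The 3 carnosine libraries had 23.8, 25.6 and 28.4 CPM, against 11.5, 12.8 and 11 CPM in the saline libraries. Every carnosine library was higher, by a log2 fold change of 1.14 ± 0.0948 (SE; 2.2-fold; adjusted p = 0.000112, edgeR), and the value lay between 0.92 and 1.20 in the 17 alternatives. Mx2, its neighbour, had 9.28, 10.1 and 9.96 CPM with carnosine and 8.91, 8.18 and 10.1 CPM with saline. Those values overlapped (log2 fold change 0.11, 95% interval -0.13 to 0.36). The log2 ratio of Mx1 to Mx2 within a library was 1.41 ± 0.0934 with carnosine and 0.38 ± 0.261 with saline, with no overlap (exact two-sided permutation p = 0.1, the smallest that 3 against 3 libraries allow).

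The IFIT genes encode proteins that bind viral RNA and lie side by side on chromosome 19. Ifit2 had 35.3, 37.8 and 34.7 CPM with carnosine, against 33.1, 30.6 and 27.9 CPM with saline, and rose by 0.23 ± 0.0757 on the log2 scale (SE; adjusted p = 0.0448, edgeR). That call was lost when any library but saline replicate 1 was left out (adjusted p 0.0662 to 0.131), also without a filter (0.0977), with DESeq2 (0.111), with the replicate block (0.0574) and with offsets for GC content and gene length (0.0826). Ifit1 averaged 12.5 ± 0.74 CPM with carnosine and 11.4 ± 1.54 CPM with saline and overlapped between groups. Ifit3 had 3.81, 2.96 and 2.24 CPM with carnosine, against 2.12, 1.82 and 1.95 CPM with saline, without overlap. At a median of 32 counts per library its error was the largest of the members (0.61 ± 0.221; adjusted p = 0.0636), and it passed without carnosine replicate 3 (adjusted p = 0.0252).

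Among the effectors at membranes, the interferon-induced transmembrane proteins fell with the smallest p-values of the members. Ifitm1 (ENSMUSG00000025491, chromosome 7, 140967221 to 140969825, GRCm38) had 119, 119.8 and 119.6 CPM with carnosine, against 182, 182 and 179 CPM with saline. Ifitm3, which blocks the entry of viruses from endosomes (ENSMUSG00000025492, chromosome 7, 141009586 to 141010770), had 88.6, 88.6 and 85 CPM with carnosine, against 136, 131 and 130.1 CPM with saline. Both were tightly grouped within a condition, with a wide gap between the groups. Their log2 fold changes were -0.60 ± 0.0255 for Ifitm1 (SE; adjusted p = 4.1e-06, edgeR) and -0.60 ± 0.035 for Ifitm3 (adjusted p = 2.1e-05). The log2 ratio of Ifitm1 to Ifitm3 was 0.45 ± 0.0383 with carnosine and 0.46 ± 0.0294 with saline (exact permutation p = 0.9). Of the same family but not members, Ifitm2 had 75.7, 81.7 and 76.2 CPM with carnosine, against 214, 89.97 and 222 CPM with saline, so saline replicate 2 stood near the carnosine libraries. The call of Ifitm2 (adjusted p = 0.0212) was lost when any library but saline replicate 2 was left out (0.0545 to 0.0661), by limma-voom (0.0653) and in both limma-trend settings (0.0623 and 0.0637). Ifitm6 was scarce in both groups (0.768 ± 0.291 CPM with carnosine and 2.02 ± 0.332 CPM with saline; -1.4 ± 0.29) and fell.

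Bst2, or tetherin, which holds budding virus at the cell surface, had 64.9, 62.4 and 64.6 CPM with carnosine, against 74, 71.5 and 71.4 CPM with saline. It fell by 0.18 ± 0.0411 on the log2 scale (SE; adjusted p = 0.0128, edgeR; 0.0703 with DESeq2). Samd9l, which restrains translation and growth, had 69.7, 68.8 and 70.7 CPM with carnosine, against 58, 60.9 and 60.6 CPM with saline. Without overlap, it rose by a log2 fold change of 0.22 ± 0.0418 (adjusted p = 0.00529, edgeR). Rsad2, which encodes viperin, averaged 26.2 ± 1.98 CPM with carnosine and 26.4 ± 0.282 CPM with saline. Its neighbour Cmpk2, a mitochondrial nucleotide kinase, averaged 58.4 ± 3.31 and 57.4 ± 1.27 CPM. Both overlapped between groups, with 95% intervals of the log2 fold change from -0.17 to 0.16 for Rsad2 and from -0.10 to 0.15 for Cmpk2.

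**Figure D3:**
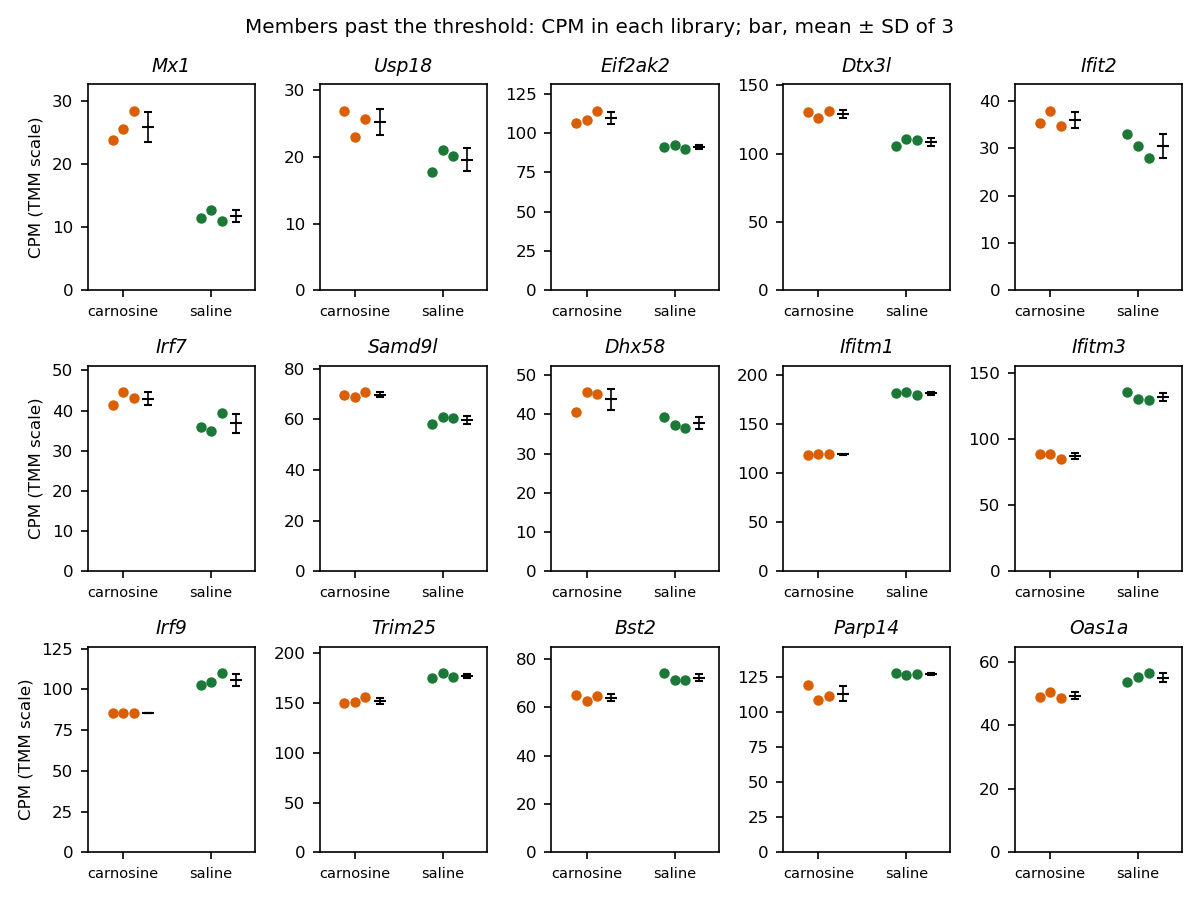
CPM on the TMM scale in each of the 3 carnosine libraries (left in each panel) and 3 saline libraries (right) for the 15 members past the threshold, with the mean ± SD and axes from 0. The 8 members that rose and the 7 that fell are shown, with Mx1 and Ifitm1 the clearest of each. The groups overlap for 0 of the 15, which were picked by the test on these same libraries. Of all tested genes, 52.3% did not overlap.

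Parp9, Dtx3l and Parp14 stand together on chromosome 16 and encode enzymes of ADP-ribosylation and ubiquitin transfer, and each had a different outcome. Dtx3l, the ubiquitin ligase, had 130.4, 126 and 131 CPM with carnosine, against 105, 111 and 110.0 CPM with saline. It rose by a log2 fold change of 0.25 ± 0.0345 (SE; adjusted p = 0.00128, edgeR). Parp14 had 119, 108 and 112 CPM with carnosine, against 127, 126 and 127 CPM with saline. It fell by 0.17 ± 0.0399 on the log2 scale (adjusted p = 0.014, edgeR; 0.053 with DESeq2). Parp9, which binds Dtx3l, had 77.3, 71.7 and 76.1 CPM with carnosine and 69.9, 68.6 and 86.6 CPM with saline, where replicate 3 was the high library. Parp9 overlapped between groups (95% interval -0.21 to 0.22). The genes Parp9 and Dtx3l overlap, and reads there could belong to either. Within libraries, the log2 ratio of Parp14 to Dtx3l was -0.19 ± 0.0535 with carnosine and 0.22 ± 0.0460 with saline, without overlap (exact permutation p = 0.1, the smallest possible).

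The remaining 5 members did not pass the test. Ifi35, a partner of Nmi, averaged 37.9 ± 1.61 CPM with carnosine and 34.5 ± 0.961 CPM with saline, without overlap (adjusted p = 0.093). It passed in limma-trend on log2(FPKM + 1) (adjusted p = 0.0195) and with offsets for GC content and gene length (0.0299). Ifi44 averaged 21.1 ± 1.67 and 23.2 ± 2.01 CPM, and Ifi27 37.9 ± 0.497 and 39.4 ± 1.41 CPM. Xaf1, a pro-apoptotic antagonist of XIAP, averaged 23.7 ± 0.812 and 23.4 ± 1.23 CPM, and Rtp4, a receptor chaperone, 13.4 ± 1.78 and 12.5 ± 0.115 CPM. These 4 overlapped between groups.

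Within 200 kb of each other lay 12 pairs of members, made of 15 genes. For 4 pairs (33.3%) the ratio within a library did not overlap between groups, against 47.1% of all 58964 pairs of tested genes this close together with counts in every library. The 4 were Mx1 and Mx2, Oas1a and Oas3, Parp9 and Dtx3l, and Parp14 and Dtx3l. Each of the 4 had an exact permutation p of 0.1, the smallest possible, so 0 pairs can pass an adjustment over the 12.

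Promoter letters were compared because the genes share a response element. RefSeq promoter windows (GRCm38.p6, 250 bases before to 50 after a start) were matched for 24 of the 34 members. The core searched for on either strand was GAAA, any 2 bases, and GAAA again. It was found for 12 of the 24 (50%), against 3.99% of 27025 genes with a window. A core of the gamma-activated site (TTC, any 3 bases, GAA), which reads the same on both strands, was found for 6 of the 24 (25%), against 9.55% of all genes, and in Ifitm3 and Bst2 the cores overlapped each other. The response element core stood in 1 of 5 windows of genes that rose, 3 of 6 of genes that fell and 8 of 13 of genes that did not pass. A match in letters is not a working site, and these windows hold no more than the stretch around a start.

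The windows printed here are those of the genes that fell most alike (Ifitm3, with the core, and Ifitm1, without it), of Eif2ak2, which rose, and of Isg15, which holds 3 overlapping copies and did not pass the test. Capitals mark the response element core, and each window runs 5′ to 3′ on the gene's strand. The Ifitm3 window is chr7:141010695-141010994 (minus strand), that of Ifitm1 chr7:140967826-140968125 (plus), that of Eif2ak2 chr17:78882523-78882822 (minus) and that of Isg15 chr4:156200769-156201068 (minus). The Ifitm1 window lies inside the counted gene, which begins at 140967221, so the stretch before that position was not searched.
Ifitm3: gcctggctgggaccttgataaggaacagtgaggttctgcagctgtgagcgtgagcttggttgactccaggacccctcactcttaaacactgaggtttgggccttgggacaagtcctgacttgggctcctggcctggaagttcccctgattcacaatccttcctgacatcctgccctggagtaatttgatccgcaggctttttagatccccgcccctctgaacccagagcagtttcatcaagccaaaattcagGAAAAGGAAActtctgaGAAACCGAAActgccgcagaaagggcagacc
Ifitm1: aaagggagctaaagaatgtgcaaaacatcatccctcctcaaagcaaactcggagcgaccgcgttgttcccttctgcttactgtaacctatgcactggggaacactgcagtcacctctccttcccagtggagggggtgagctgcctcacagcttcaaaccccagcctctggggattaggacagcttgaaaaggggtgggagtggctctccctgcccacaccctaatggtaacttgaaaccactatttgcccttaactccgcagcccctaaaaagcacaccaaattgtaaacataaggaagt
Eif2ak2: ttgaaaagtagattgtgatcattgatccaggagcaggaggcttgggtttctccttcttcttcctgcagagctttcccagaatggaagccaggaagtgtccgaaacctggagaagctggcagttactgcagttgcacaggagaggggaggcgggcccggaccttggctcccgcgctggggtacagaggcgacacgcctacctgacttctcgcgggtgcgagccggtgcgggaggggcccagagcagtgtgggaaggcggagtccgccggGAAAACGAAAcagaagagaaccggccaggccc
Isg15: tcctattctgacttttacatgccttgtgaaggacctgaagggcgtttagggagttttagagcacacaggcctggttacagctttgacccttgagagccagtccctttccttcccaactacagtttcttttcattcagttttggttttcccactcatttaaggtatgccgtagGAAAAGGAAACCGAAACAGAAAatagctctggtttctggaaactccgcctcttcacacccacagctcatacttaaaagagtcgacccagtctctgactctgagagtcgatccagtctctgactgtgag
Counted from the annotated start, the cores begin at bases 3 and 20 of the transcript in Ifitm3 and at base 19 in Eif2ak2, and they lie upstream of the start in Isg15.

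Other interferon-stimulated genes, 62 tested genes that are not members, had 26 rises (41.9%, against 19.6% of all genes) and 8 falls (12.9%, against 19.8%), with a median log2 fold change of 0.17. With each library left out in turn these counts were 19 to 22 and 5 to 7, with 5 falls without carnosine replicate 3. With DESeq2 they were 19 and 4. The rises with the smallest p-values were Slfn5, a Schlafen gene (46.1 ± 1.42 CPM with carnosine and 19.3 ± 2.48 CPM with saline; 1.26 ± 0.0942), Phf11a (8.33 ± 0.347 and 1.74 ± 0.468 CPM; 2.28 ± 0.175), Slfn9 (0.46 ± 0.0424) and Slfn4 (1.39 ± 0.127). The falls with the smallest p-values were Uba7 and Ifitm6, given above, Zc3hav1, an antiviral zinc finger protein (228 ± 4.01 CPM and 257 ± 7.06 CPM; -0.18 ± 0.0295), and the scramblase Plscr1 (-0.19 ± 0.0462; lost with DESeq2, adjusted p = 0.0606).

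Genes tied to interferon gamma split: of 19 tested, 5 rose (26.3%, against 19.6% of all genes) and 6 fell (31.6%, against 19.8%). Their median log2 fold change was 0.00080. Ciita, the master regulator of MHC class II, reached 41 ± 1.24 CPM with carnosine, against 14.6 ± 1.28 CPM with saline (1.49 ± 0.0766). The chemokine genes Cxcl9 and Cxcl10, whose proteins bind the same receptor, moved in opposite directions. Cxcl9 had 17.8 ± 1.33 CPM with carnosine and 6.71 ± 1.31 CPM with saline (1.42 ± 0.139), and Cxcl10 had 16 ± 0.74 and 52.2 ± 2.21 CPM (-1.71 ± 0.0622). The GTPases Irgm2 (0.72 ± 0.105) and Gbp9 (0.49 ± 0.112) rose, while Gbp2 (-0.71 ± 0.0565), Tgtp2 (-0.17 ± 0.0273) and the checkpoint ligand Cd274 (-0.53 ± 0.0732) fell. Tgtp1 and Tgtp2 are near-identical copies, so the value of Tgtp2 is uncertain.

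**Figure D4:**
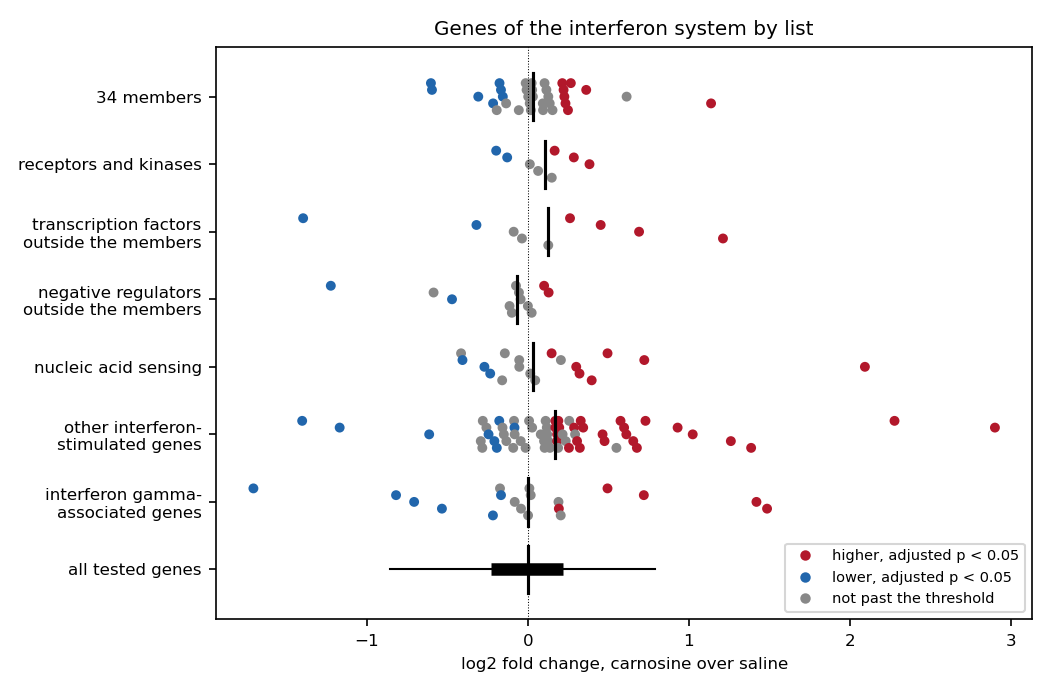
Log2 fold change of carnosine over saline (x axis) for each tested gene of the members and of other lists of the interferon system, coloured by call, with each list's median marked. All 15533 tested genes are summarised in a row of their own by their median, quartiles and 5th and 95th percentiles. The members' median is 0.03, and that of the other interferon-stimulated genes is 0.17.

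Markers of other cell types also differed between the groups, and their part in the members' values was not tested. Beside the counts below, 19.6% of all tested genes rose and 19.8% fell. Of the 8 tested T and natural killer cell markers 5 rose and 3 fell, with a summed level of 132.5 to 141 CPM with carnosine and 116 to 120.1 CPM with saline. The rises were Cd3e, Cd4, Cd8a, Trac and Nkg7, a granule gene of natural killer and cytotoxic T cells (114 ± 4.19 CPM with carnosine against 81.5 ± 1.54 CPM with saline), and the call of Trac was lost with DESeq2, with the replicate block and without carnosine replicate 3. The falls were Ncr1 (0.437 ± 0.209 CPM with carnosine against 3.06 ± 0.514 CPM with saline), Klrb1c (0.717 ± 0.185 CPM against 2.44 ± 0.548 CPM) and Il2rb (6.22 ± 0.805 CPM against 25.3 ± 1.149 CPM). Nkg7 made up most of each sum, so the higher sums with carnosine do not show the direction of the other markers. Of the plasmacytoid dendritic cell markers, a cell type known as a source of interferon alpha, 2 of 7 rose and 1 fell (170.2 to 197 CPM with carnosine and 192 to 223 CPM with saline), and Klk1b27 and Cd209d were at 0 in every library.

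Monocyte and macrophage markers rose in 2 of 10 cases and fell in 4 (408 to 434.5 CPM with carnosine and 426.5 to 457 CPM with saline). Neutrophil markers rose in 4 of 9 and fell in 3 (204 to 213 CPM against 131 to 137 CPM). The median log2 fold change of these 9 was -0.42, so the higher sums with carnosine do not show the direction of each marker. B and plasma cell markers rose in 3 of 10 and fell in 1. Their sums varied widely among the carnosine libraries (515 to 813 CPM, against 498 to 509.6 CPM with saline). Erythroid markers rose in 6 of 10 and fell in 2 (624 to 648 CPM against 484.5 to 490.3 CPM). Endothelial and stromal markers rose in 0 of 6 and fell in 5 (127 to 132 CPM against 178 to 186 CPM), and 4 of the 10 listed were too low to test. Lepr and Pdgfra, at 0 in every carnosine library, are not among the 5 that fell. Stem cell markers rose in 1 of 11 and fell in 6 (763 to 797 CPM against 967 to 987.5 CPM).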

How the data were processed

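RNA was measured in 6 libraries, grouped by their titles. The deposited whole-number counts per gene are not normalized, per the file headers and values. The deposited FPKM values match those counts divided by library total and by 1 length per gene, which was derived from the values themselves. For Irf7 that length was 10234 bases and for Irf9 9263 bases, more than the loci of these genes span. Levels of different genes in FPKM are therefore uncertain. The submitters' processing notes name CASAVA 1.8, HISAT2, StringTie, edgeR and the build GRCm38, without the role of each tool. Neither the annotation nor the use of strand in counting is stated, although the labels' protocols name a stranded kit.

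Counts of all genes entered 1 fit in edgeR 4.0.16 (R 4.3.3): filterByExpr (99.8% of counts kept), TMM scaling, quasi-likelihood F-test without covariates, Benjamini-Hochberg adjustment over 15533 genes and a threshold of 0.05. CPM are on the TMM scale, and means carry an SD over 3 libraries. An SE is the log2 fold change over the root of F, and intervals cover 95%. The biological coefficient of variation was 0.0999. The median squared difference between libraries of a group was 1.58 to 1.81 times that of sampling noise. Between libraries of different groups it was 7.86 to 9.04 times, so none was treated as a duplicate. A count of 0 is given a limit of 3 counts, for counting error alone.

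The members, lists and tests were chosen with earlier results of these data known. Every member is accounted for, and other lists are named by up to 4 genes per direction with the smallest p-values. Ifnar1, Ifnar2, Oas1c, Oas1g, Ifitm2, Herc6 and the lymphocyte markers were named outside that rule, with their values seen. Alternatives were other scalings (DESeq2 size factors, upper quartile), no filter, at least 5 CPM in 3 libraries, DESeq2 1.42.0, limma-voom and limma-trend (limma 3.58.1; log2 of FPKM with a pseudocount of 1 or 0.1), a replicate block, gene length offsets, a 2-fold limit and each library left out. Offsets for GC content with gene length were added after seeing the data. The fit was tested on simulated data. The symbol Gm4955 matched no row.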

Additional observations from a re-analysis of the deposited data

How the results depend on the processing

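The other scalings and limma-voom left every member on its side of the threshold. With DESeq2, 5 members rose and 4 fell, and a limit of 2-fold left 1 rise and 0 falls. Without 1 library, 5 to 6 members rose and 6 to 7 fell, and the members' median was 0.019 to 0.069. That median was 0.072 and 0.080 by limma-trend with pseudocounts of 1 and 0.1, and 0.0038 with GC content and gene length offsets, an alternative chosen after seeing the data. Parp14 lost its call by limma-trend (adjusted p = 0.0969 and 0.0965). At least 5 CPM dropped Ifit3 and left 33 members tested. Replicate numbers did not pair the libraries: deviations of same-numbered libraries correlated at 0.0079 to 0.0268, although each library correlated best with its own number. With the replicate block 4 members rose and 6 fell, since Ifit2, Irf7, Usp18, Dhx58 and Oas1a missed the threshold (adjusted p 0.0517 to 0.0812). Depth limits Ifit3, with a counting coefficient of variation of 17.7%. Reads that Ifit3 may share with Ifit3b, on the list of other interferon-stimulated genes, were not examined.

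Sign changes occurred in members near 0, none past the threshold, and the cause was not tested. Parp9 was -0.0043 without a filter, -0.0059 at 5 CPM, -0.018 with length offsets and -0.046 with GC content and length offsets. Isg15 was -0.015 and -0.017 with those offsets, and Xaf1 -0.024 and Cmpk2 -0.0043 with both together. By limma-trend with pseudocounts of 1 and 0.1, Rsad2 was 0.036 and 0.045, Ifi27 0.0012 and 0.0013, and Ddx58 0.038 and 0.043. Leaving out 1 library in turn gave ranges of -0.055 to 0.085 for Isg15, -0.12 to 0.22 for Oasl2, -0.042 to 0.053 for Rsad2, -0.032 to 0.014 for Ddx58, -0.058 to 0.11 for Parp9, -0.013 to 0.061 for Xaf1, -0.046 to 0.074 for Zbp1, -0.018 to 0.16 for Rtp4 and -0.017 to 0.061 for Cmpk2.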

Other observations

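The following genes from the list of other interferon-stimulated genes, of which 41.9% rose against 19.6% of all genes, were picked with those values in view, so they are given as values only. Among the Schlafen genes, Slfn1 had 2.93 ± 0.64 CPM with carnosine and 0.394 ± 0.233 CPM with saline (log2 fold change 2.9 ± 0.388, SE), Slfn3 20.7 ± 1.75 and 13.6 ± 0.46 CPM (0.61 ± 0.0833), and Slfn2 21.9 ± 0.116 and 17.5 ± 1.75 CPM (0.33 ± 0.0837). Slfn8, which did not pass, had 43.9 ± 1.03 and 43.7 ± 0.777 CPM (95% interval of the log2 fold change -0.10 to 0.12). The call of Slfn2 was lost with DESeq2 and without carnosine replicate 2, saline replicate 1 or saline replicate 3. Slfn8 and Slfn9, like Slfn3 and Slfn4, are close relatives, and reads shared between such copies could be split among them. The Trim30 and Trim34 genes, also chosen after their values were seen, included Trim30d (25.1 ± 0.513 and 13.2 ± 1.99 CPM; 0.93 ± 0.111) and Trim34a (26.5 ± 0.775 and 16.9 ± 1.8 CPM; 0.65 ± 0.0858), which rose and held their calls in the 17 alternatives.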
